A study of Homo sapiens with 16 samples.

Results

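The 77 genes described here encode the proteins of the cytosolic ribosome, 46 of the large subunit and 31 of the small subunit. They were chosen by symbol, as the genes named RPL or RPS with a number and an optional A or X, together with RPLP0, RPLP1, RPLP2 and RPSA, among the 26229 genes listed. RNA-seq was made from A431 cells, a line from an epidermoid carcinoma, and from HaCaT cells, a line of spontaneously immortalised keratinocytes, both grown in DMEM with FCS. Each line had 1 library with control siRNA (siCTRL), 3 with siRNA against YAP1 (siYAP), 1 with an empty expression vector and 3 with YAP5SA, the constitutively active S5A mutant of YAP1, which makes 16 libraries in 8 groups. No siRNA was given to the vector libraries and no vector to the siRNA libraries. The siRNA was transfected again on the following day, and all siRNA libraries share a stated time after that repeat transfection. No time after transfection is given for the vector libraries, so time may also differ between the siRNA and vector arms. Each line is a single cell line, each control is a single library, and the promoter that drives YAP5SA is not given in the sources used here.

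The ribosome is built from ribosomal RNA and these proteins, with the small subunit decoding the mRNA and the large subunit forming the peptide bond. Their mRNAs are among the most abundant of dividing cells. Most begin with a C followed by a run of pyrimidines, the 5′ terminal oligopyrimidine (TOP) sequence through which mTOR signalling and LARP1 control their translation. Translation was not measured here. YAP is a transcriptional co-activator held in check by the Hippo pathway, and the experiment asks which transcripts follow its loss and its activation.

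The letters around the start of 9 members and 1 paralogue are shown because the results below turn on these genes. Each line gives 15 bases before and 15 bases from the start that RefSeq lists for the gene in GRCh38.p14, read 5′ to 3′ on the strand of the gene. Capitals mark a run of C and T that begins with C at the first transcribed base and is at least 5 bases long.
RPS13, chr11:17077653-17077682, minus strand: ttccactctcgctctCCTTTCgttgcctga
RPS15, chr19:1438381-1438410, plus strand: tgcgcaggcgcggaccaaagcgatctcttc
RPS6, chr9:19380222-19380251, minus strand: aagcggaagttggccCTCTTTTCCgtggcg
RPS16, chr19:39435935-39435964, minus strand: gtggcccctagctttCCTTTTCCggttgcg
RPS4X, chrX:72277234-72277263, minus strand: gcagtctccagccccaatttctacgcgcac
RPL35, chr9:124861943-124861972, minus strand: agccccgcctacttcCTCTTTCCCTCggag
RPLP2, chr11:809952-809981, plus strand: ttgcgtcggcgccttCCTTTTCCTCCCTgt
RPL9, chr4:39458908-39458937, minus strand: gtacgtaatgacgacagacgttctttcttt
RPL22, chr1:6199581-6199610, minus strand: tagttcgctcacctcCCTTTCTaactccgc
RPL22L1, chr3:170870181-170870210, minus strand: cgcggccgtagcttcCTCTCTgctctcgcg

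Of the 77 members, 62 had a start in the RefSeq table, and 46 of these (74.2%) began with such a run, 28 of 38 in the large subunit and 18 of 24 in the small subunit. The motif was searched on the strand of the gene only, and it was found in 7.09% of the tested genes with a listed start and in 5.14% of all genes of the table. Among the 68 mitochondrial ribosomal protein genes with a listed start, 6 (8.82%) held it. RPS15, RPS4X and RPL9 held no such run at the base listed. RPL23, RPL23A, RPL30, RPL37, RPL5, RPL7, RPL8, RPS15A, RPS2 and RPS20 were among the members with no entry.

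The labels were first checked on YAP1 itself. In A431 cells YAP1 was at 94.3 CPM (assigned pairs scaled to a common library size with TMM factors) with siCTRL and at 5.34, 7.0 and 5.04 CPM with siYAP. It was at 124 CPM with the empty vector and at 1495, 3245 and 2940 CPM with YAP5SA. In HaCaT cells YAP1 was at 254 CPM with siCTRL and between 21.6 and 23.2 CPM with siYAP, and at 423 CPM with the empty vector against 7549, 22250 and 10070 CPM with YAP5SA. Every library went the way its label says. Libraries held between 18115624 and 46791673 assigned read pairs. All 6 keratinocyte and epithelial markers (KRT5, KRT14, TP63, CDH1, KRT18 and EGFR) were above 1 CPM in each line, and the 5 fibroblast, leukocyte and endothelial markers summed to at most 6.12 CPM in any library, with COL1A2 at 0 in every A431 library.

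All 77 members passed the filter of a mean above 10 counts per library, and the lowest estimated count of any member named here was 1381, for RPS28. A gene was called changed at an adjusted p (FDR) under 0.05 in the quasi-likelihood test of edgeR with a logCPM above 1. The study describes biological triplicates, the labels name no separate cultures, and each control is 1 library, so p-values measure only the spread between the treated libraries, which may be technical. For 3 libraries against 1, the smallest two-sided p of an exact permutation is 0.25.

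The share of a library taken by ribosomal protein genes varied more between HaCaT groups than between A431 groups. In A431 cells they held 7.74% of assigned pairs with siCTRL, 7.97% ± 0.292 (SD, n = 3) with siYAP, 7.52% with the empty vector and 6.62% ± 0.582 (SD, n = 3) with YAP5SA. In HaCaT cells they held 9.09% with siCTRL, 7.51% ± 0.519 (SD, n = 3) with siYAP, 5.10% with the empty vector and 4.81% ± 0.209 (SD, n = 3) with YAP5SA. The highest and the lowest shares were therefore both in HaCaT cells, in the siRNA arm and in the vector arm. Counting error was small beside this, with a 95% Wilson interval of 9.08% to 9.11% for HaCaT siCTRL and of 5.09% to 5.11% for HaCaT empty vector, and such intervals cover counting error only. In bulk RNA, fewer cells of a type and less RNA per cell cannot be told apart, and a share falls when other transcripts rise.

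**Figure D1:**
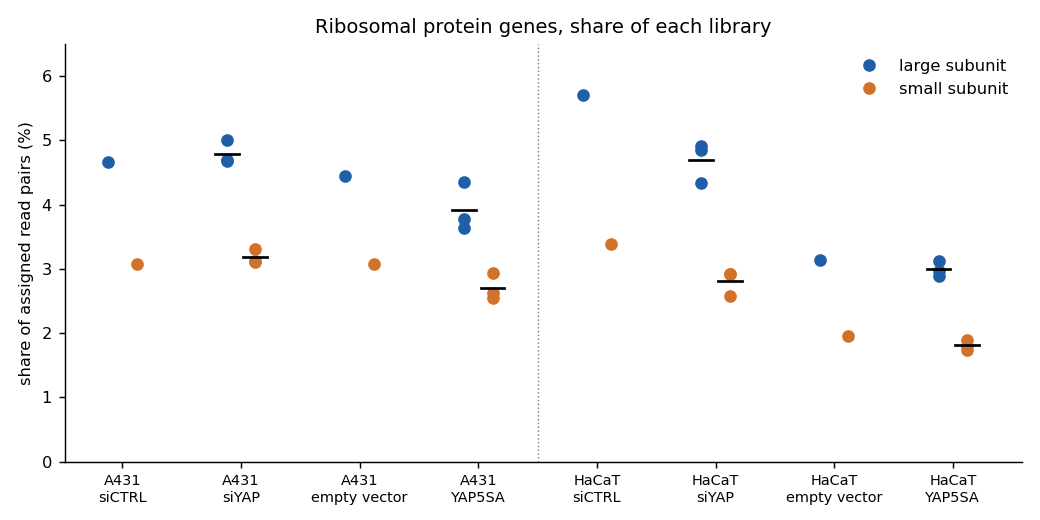
Share of assigned read pairs (%, y axis) on the 46 large subunit and 31 small subunit genes in each of the 16 libraries, by group (x axis). Each point is 1 library and each bar is the mean of 3. The HaCaT siCTRL library is the highest for both subunits and the HaCaT vector libraries are the lowest.

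The subunits kept a nearly fixed ratio within a line. The pairs on large subunit genes were 1.43 to 1.52 times those on small subunit genes in the 8 A431 libraries and 1.60 to 1.68 times in the 8 HaCaT libraries, so the ranges did not overlap. With siYAP the ratio was 1.51 ± 0.00945 in A431 and 1.67 ± 0.0124 in HaCaT cells, and with YAP5SA it was 1.45 ± 0.0280 and 1.65 ± 0.00929 (SD, n = 3 each). For 3 libraries against 3 the smallest two-sided p of an exact permutation test is 0.10, and the ratio was not tested in another way.

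The controls of HaCaT cells differed from each other before any treatment is considered. The empty vector library lay below the siCTRL library for 46 of 46 large subunit genes, with a median log2 ratio of -0.69, and for 30 of 31 small subunit genes, with a median of -0.60, whereas the median over genes with a logCPM above 1 was 0.04. RPL28 was the lowest of the large subunit at -1.98 and RPS28 of the small subunit at -1.87. RPS16 was the exception, at a log2 ratio of 1.01. In A431 cells the same medians were -0.08 and 0.01. These are single libraries with no replicate check. Transfected siRNA, vector, time after transfection and library preparation cannot be told apart between them.

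Levels per length differed widely between members. Per kilobase of coding sequence, averaged over the 16 libraries, RPL41, the shortest ribosomal protein, was the highest at 22020 CPM per kb, followed in the large subunit by RPL39 at 6783 and RPL30 at 3283 CPM per kb. Coding length leaves out the untranslated ends, which raises the value of genes with very short coding sequences such as the 75 bases of RPL41. Among the lowest of the large subunit were RPL28 at 543 and RPL14 at 639 CPM per kb. In the small subunit, RPS27, RPS24 and RPS29 were the highest at 4796, 3667 and 2788 CPM per kb. RPS16, RPS15 and RPS9 were the lowest at 335, 474 and 484 CPM per kb. The coding GC content of the 6 lowest members ran from 49.8% for RPL14 to 63.0% for RPS15, and that of the 6 highest from 42.5% for RPL39 to 53.6% for RPS29.

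After loss of YAP in A431 cells no ribosomal protein gene passed the test, and levels lay on both sides of the control. The median log2 fold change was -0.02 for the large and 0.03 for the small subunit, beside 0.00 over the 12240 genes with a logCPM above 1. No member was called by edgeR, which called 3.78% of the 14673 tested genes lower and 1.81% higher. DESeq2 called no member either, where it called 5.75% of tested genes lower and 3.78% higher. By edgeR 2 members (1 of each subunit) had an unadjusted p under 0.05, where 22.2% of genes did. Of the large subunit 26 genes and of the small subunit 13 lay below 0, where 46.7% of tested genes did. All 3 siYAP libraries were below the control for 25 members and above it for 21, where 34.9% and 37.4% of tested genes were. The quartiles of the members were -0.07 and 0.11, against -0.26 and 0.30 over genes with a logCPM above 1. The largest values belonged to RPS28 at 0.42, RPS15 at 0.42, RPLP2 at 0.40 and RPL36 at 0.39, all uncalled (FDR 0.158 to 0.426), and the lowest to RPS16 at -0.48, RPS27A at -0.20, RPL22 at -0.19 and RPL14 at -0.18. RPLP2 is a protein of the acidic stalk that recruits elongation factors, and RPS27A is made as a fusion with ubiquitin.

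After loss of YAP in HaCaT cells nearly all members lay below the control, each by a small amount, and 1 passed the test. The median log2 fold change was -0.33 for the large subunit, a fold of 0.796, and -0.32 for the small subunit, a fold of 0.804, beside 0.00 over genes with a logCPM above 1. Of 46 large subunit genes 43 lay below 0, as did 31 of 31 small subunit genes, where 46.8% of all tested genes did. All 3 siYAP libraries were below the siCTRL library for 39 large and 28 small subunit genes, where 33.4% of tested genes were, and above it for 3 large subunit genes, where 36.3% were. By library, the median log2 ratio over both subunits was -0.30, -0.22 and -0.44. These values share 1 siCTRL library, which was also the highest of the 16 in ribosomal protein share. When both HaCaT controls entered as 1 group of 2, the medians were -0.04 for the large and -0.09 for the small subunit.

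Only RPS13, a small subunit protein, was called lower in HaCaT cells with siYAP, 1 of 77 members beside 3.3% of tested genes called lower, and no member was called higher, beside 2.37%. The siCTRL library held 868 CPM of RPS13 and the siYAP libraries 572, 589 and 506 CPM, which came to -0.64 on the log2 scale (SE 0.152, FDR 0.0247 by edgeR). No siYAP library reached the siCTRL value. In A431 cells the siCTRL library held 969 CPM and the siYAP libraries 892, 930 and 833 CPM (log2 fold change -0.13, FDR 0.681), and the difference of the effects between the lines was -0.51 (SE 0.222, FDR 0.394). The RPS13 call was lost without siYAP replicate 1 (FDR 0.0548), without replicate 3 (FDR 0.0795), with HaCaT cells fitted alone (FDR 0.0765), and with both controls (log2 fold change -0.38). DESeq2 called 5 members lower, which were RPS13, RPS10, RPL3, RPL4 and RPL27, where it called 4.95% of tested genes lower.

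Behind RPS13 came RPL13A, which read 1997 CPM in the siCTRL library and 1294, 1435 and 1134 CPM (log2 fold change -0.63, FDR 0.172), RPS26 (log2 fold change -0.52, FDR 0.0892) and RPL27 (log2 fold change -0.50, FDR 0.0521). RPL13A shares sequence with RPL13AP5, a pseudogene listed with up to 592 CPM, so its counts are less certain. At the other end RPLP1 was at 0.10, RPL36 at 0.06, RPS16 at -0.05 and RPS28 at -0.09 log2 units, and none of these was called. Unadjusted p was under 0.05 for 25 of 77 members, all lower, where 10.7% of tested genes were lower by that rule. The difference of the siYAP effect between the lines was below 0 for 76 of 77 members (medians -0.30 and -0.34), beside 50.3% of tested genes. No member was called in it by edgeR or DESeq2, where edgeR called 0.17% of tested genes and DESeq2 1.91%. By edgeR 3 members had an unadjusted p under 0.05, where 11.5% of genes did.

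**Figure D2:**
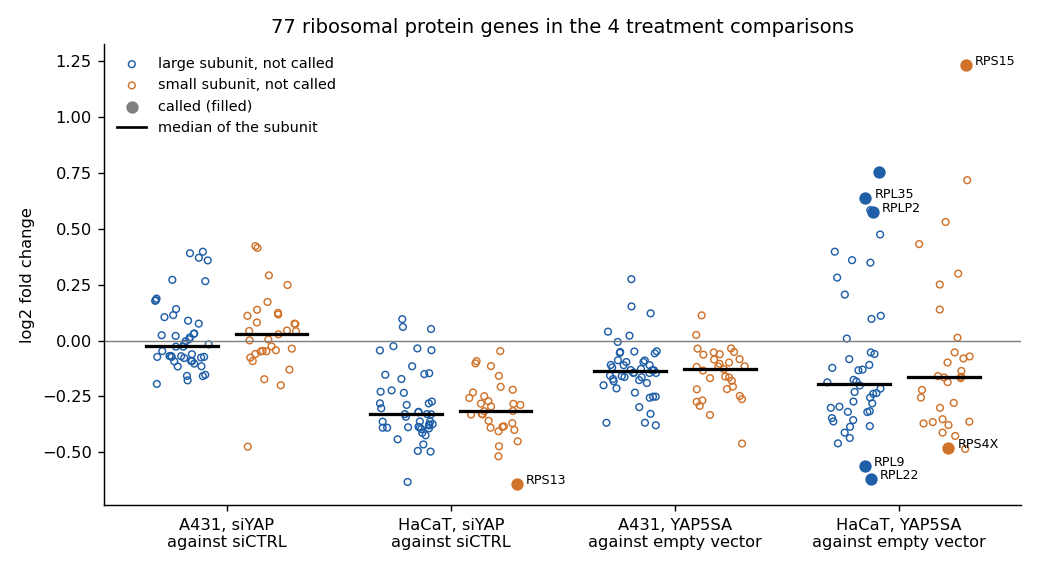
Log2 fold change (y axis) of the 77 genes in the 4 treatment comparisons (x axis), large subunit left and small subunit right within each. Open circles are genes that were not called, filled circles genes called at FDR under 0.05 with a logCPM above 1, and bars the medians, which are -0.33 and -0.32 in HaCaT cells with siYAP.

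With YAP5SA in A431 cells edgeR called none of the 14673 tested genes (0.0%), YAP1 included (log2 fold change 4.36, FDR 0.197), and DESeq2 called 3 genes, none of them a member. At an unadjusted p under 0.05, 5.64% of genes and 1 member, RPLP1, passed. The member medians were -0.14 for the large and -0.13 for the small subunit, beside 0.04 over genes with a logCPM above 1, and 41 and 29 genes lay below 0, where 46.4% of tested genes did. All 3 libraries were below the control for 27 members, where 24.5% of tested genes were. The libraries did not act alike, since the median log2 ratio over both subunits was 0.02 in replicate 1 and -0.26 and -0.21 in replicates 2 and 3. Without replicate 1 the medians were -0.245 for the large and -0.222 for the small subunit, 87 genes were called, none of them a member, and 19 members had an unadjusted p under 0.05, where 15.9% of tested genes did. RPS28 (-0.46), RPLP1 (-0.38), RPL13A (-0.37) and RPS9 (-0.33) had the lowest log2 fold changes, and RPL6 (0.28), RPL5 (0.15), RPS7 (0.11) and RPS20 (0.03) the highest. RPL5 carries 5S ribosomal RNA into the large subunit with RPL11 and binds MDM2 when ribosome assembly fails.

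YAP5SA in HaCaT cells went with calls in both directions. The median log2 fold change was -0.19 for the large subunit, with 33 of 46 genes below 0, and -0.17 for the small subunit, with 23 of 31 below 0, where 48.8% of tested genes were. All 3 libraries lay below the empty vector library for 44 members and above it for 17, where 33.9% and 32.1% of tested genes did, and 24 members had an unadjusted p under 0.05, where 31.8% did. By edgeR 4 of 77 were called higher, where 6.99% of tested genes were, and 3 lower, where 6.64% were, so the share of members called was no higher than that of all genes. RPS15, a small subunit protein, was at 66.9 CPM with the empty vector and at 143, 156 and 173 CPM with YAP5SA, which came to 1.23 on the log2 scale (SE 0.173, FDR 0.00258). RPL35 went from 360 CPM to 541, 487 and 652 CPM (log2 fold change 0.64, FDR 0.0338). All YAP5SA libraries were above the empty vector library for these genes. RPLP2, of the stalk, went from 175 CPM to 245, 234 and 304 CPM (log2 fold change 0.58, FDR 0.0360).

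The 3 members called lower were RPL22, RPL9 and RPS4X. RPL22, which also binds viral and cellular RNA outside the ribosome, was at 645 CPM with the empty vector and at 408, 430 and 421 CPM with YAP5SA, which came to -0.62 on the log2 scale (SE 0.138, FDR 0.0141). RPL9 was at 1060 CPM and at 691, 794 and 669 CPM (log2 fold change -0.56, FDR 0.0340). RPS4X, encoded on the X chromosome, was at 1164 CPM and at 747, 887 and 863 CPM (log2 fold change -0.48, FDR 0.0459). No YAP5SA library reached the control value for any of the 3. RPS3A had a log2 fold change of -0.49 (FDR 0.0658) and RPS28 of 0.72 (FDR 0.116), and neither was called.

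The set of calls in HaCaT cells with YAP5SA rested on the single empty vector library. When both HaCaT controls were used, 30 members were called and all 30 were lower, where 8.23% of tested genes were called lower, RPL22, RPL9 and RPS4X among them, while RPS15 came to 0.19 (FDR 0.729), RPL35 to 0.15 (FDR 0.706) and RPLP2 to -0.12 (FDR 0.786) on the log2 scale. Without replicate 3 only RPS15 and RPL22 were called, where 7.77% of tested genes were. Without replicate 2 there were 14 calls, 7 in each direction, where 8.56% of tested genes were called higher and 6.41% lower.

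The log2 fold change of a member went with the GC content of its coding sequence. Across the 77 members, Pearson's r between GC and the log2 fold change was 0.72 in HaCaT cells with YAP5SA, 0.61 in A431 cells with siYAP, 0.34 in HaCaT cells with siYAP and -0.59 in A431 cells with YAP5SA, as a description across genes that share the same libraries. Over the 11583 genes with a logCPM above 1 and a known GC content the same values were 0.38, 0.14, 0.04 and -0.12. In HaCaT cells with YAP5SA the 25 members of lowest GC (42.5% to 47.9%) had a median of -0.35 and the 25 of highest GC (54.2% to 63.0%) a median of 0.30. RPS15 is the member of highest coding GC, at 63.0%, and RPL22, RPL9 and RPS4X are at 44.3%, 43.6% and 48.5%.

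GC content separated the HaCaT controls as well. The log2 ratio of empty vector to siCTRL had r = -0.52 with GC in HaCaT cells, with medians of -0.54 for the 25 members of lowest GC and -1.07 for the 25 of highest GC, and r = 0.54 in A431 cells. When a smooth trend on transcript length and GC was taken out of every library, 2 members were called in HaCaT cells with YAP5SA. They were RPS15, higher at 0.78 (FDR 0.0143), and RPL13, lower, where 3.92% of tested genes were called higher and 3.56% lower. The calls of RPL35 (0.47), RPLP2 (0.43), RPL22 (-0.41, FDR 0.0636), RPL9 (-0.32) and RPS4X (-0.36) were lost. The medians of HaCaT cells with siYAP moved little under the same correction, to -0.33 and -0.31. The part of GC content in these results was otherwise not tested.

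**Figure D3:**
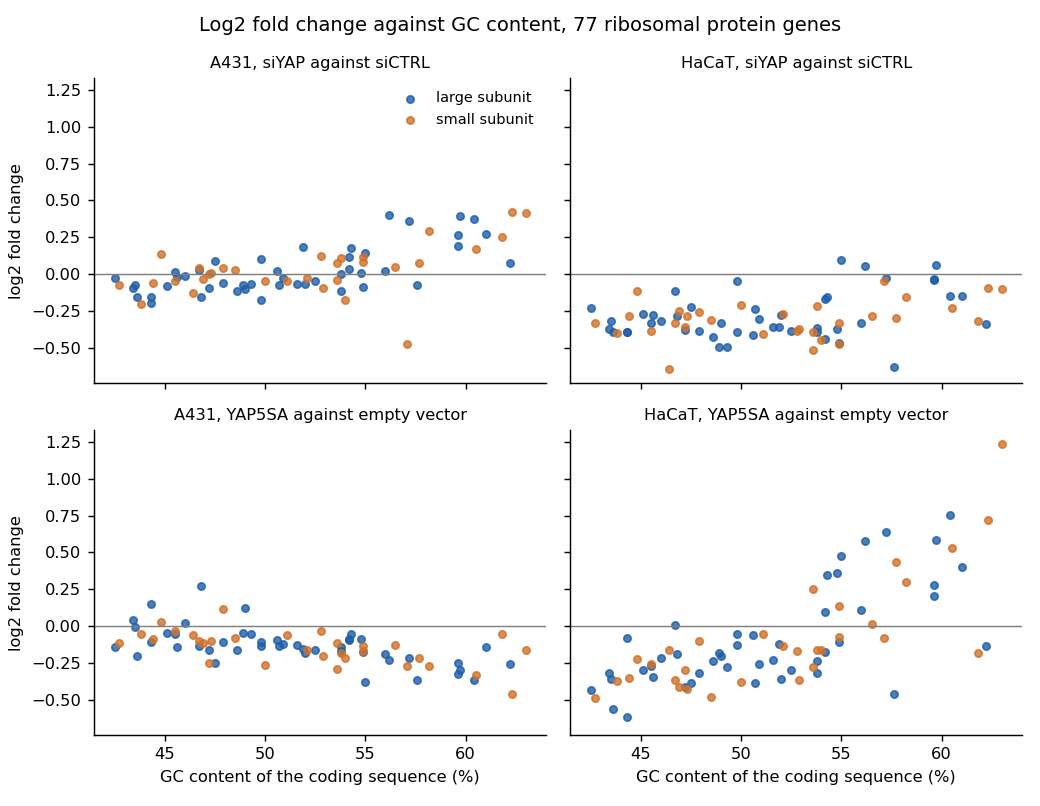
Log2 fold change (y axis) against the GC content of the coding sequence (%, x axis) for the 77 genes in the 4 treatment comparisons, 1 point a gene. Points rise with GC in HaCaT cells with YAP5SA (Pearson's r = 0.72) and fall in A431 cells with YAP5SA (r = -0.59).

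The change with YAP5SA against the single empty vector library was called different between the lines for RPS15. In HaCaT cells of the siRNA arm RPS15 was at 210 CPM with siCTRL and at 199, 210 and 178 CPM with siYAP. All 4 were above the HaCaT YAP5SA libraries. In A431 cells RPS15 was at 264 CPM with the empty vector and at 263, 230 and 216 CPM with YAP5SA (log2 fold change -0.16, FDR 0.863). The difference of the effects, HaCaT minus A431, was 1.39 (SE 0.228, FDR 0.0425), which made RPS15 the 1 member called, where 0.0682% of tested genes were called higher. Of the 77 members 43 had a difference below 0, where 51.3% of tested genes did, and 13 had an unadjusted p under 0.05, where 22.4% did. The difference was 0.68 (FDR 0.167) with the length and GC trend taken out. RPLP2 (0.81, FDR 0.0843) and RPL35 (0.85, FDR 0.0906) had differences of the same sign that were not called by edgeR, and DESeq2 called 8 members, all higher, where it called 3.55% of tested genes higher.

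**Figure D4:**
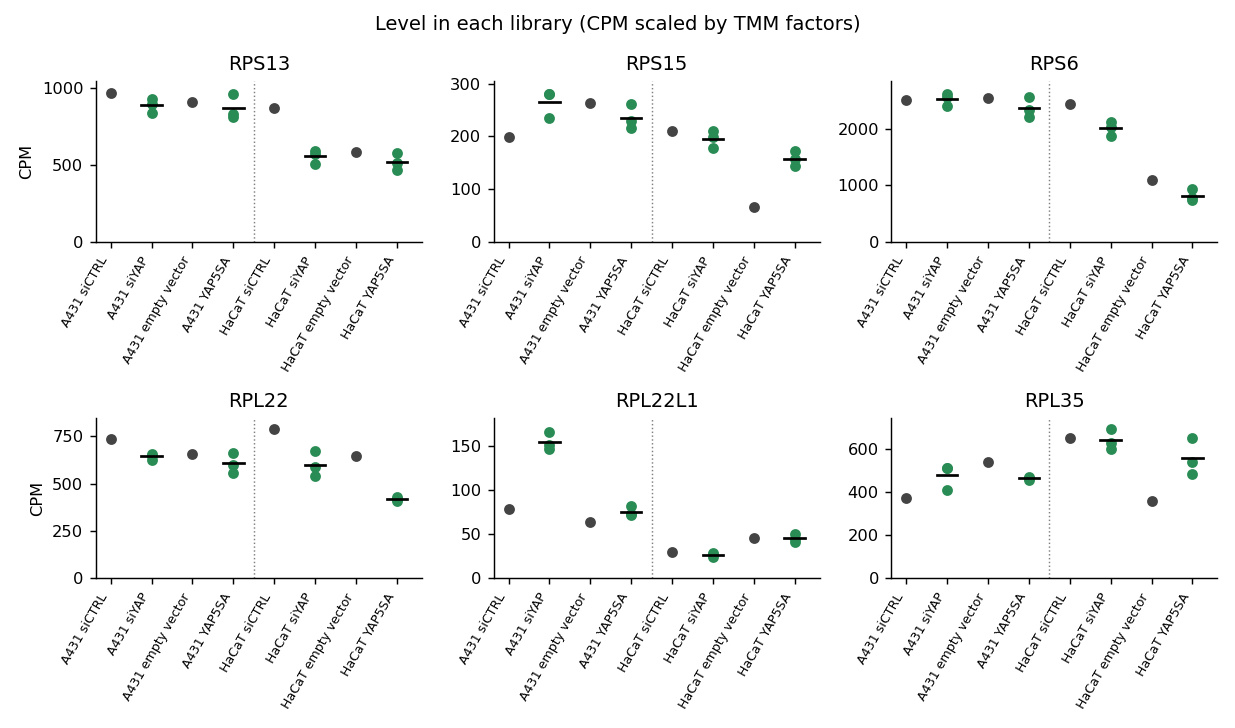
Level of 6 genes (CPM scaled by TMM factors, y axis from 0) in each of the 16 libraries by group (x axis), with bars at the mean of 3. RPS15 and RPL35 are lowest in the HaCaT empty vector library, RPS6 is low in all HaCaT vector libraries, and RPL22L1 is highest in the A431 siYAP libraries.

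Between the lines, treated libraries could be set 3 against 3. With siYAP, 12 large and 13 small subunit genes were called lower in HaCaT than in A431 cells and 7 and 5 were called higher, where 31.7% and 26.9% of all tested genes were. Below 0 lay 51 of 77 members, where 51.0% of tested genes did. The HaCaT libraries were all below the A431 libraries for 32 members and all above for 16, where 39.3% and 36.6% of tested genes were. Among the lowest were RPSA, a small subunit protein also known as the laminin receptor, at -0.996, RPL35A at -0.80, RPS19, the gene most often mutated in Diamond-Blackfan anaemia, at -0.76, RPL8 at -0.72 and RPL30 at -0.63 on the log2 scale. RPSA was at 1155, 1101 and 1048 CPM in A431 and at 557, 626 and 475 CPM in HaCaT cells. Among the highest were RPL37 at 0.62, RPL21 at 0.55, RPS3 at 0.54, RPL6 at 0.50 and RPS25 at 0.45. RPL37 was at 743, 757 and 695 CPM in A431 and at 1134, 1196 and 1043 CPM in HaCaT cells. In neither gene did the groups overlap.

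With YAP5SA, 55 of 77 members were called lower in HaCaT cells, 31 of the large and 24 of the small subunit, where 26.7% of tested genes were, and 3 were called higher, where 23.5% were. Below 0 lay 66 of 77 members, where 52.2% of tested genes did. The groups did not overlap for 55 members that were lower and 4 that were higher, where 31.7% and 28.1% of tested genes were. The medians were -0.45 for the large and -0.57 for the small subunit, beside -0.05 over genes with a logCPM above 1. RPS6, the small subunit protein phosphorylated by S6 kinase, was the lowest at -1.54 (SE 0.114, FDR 1.56e-07). RPS6 was at 2566, 2211 and 2336 CPM in A431 and at 740, 927 and 776 CPM in HaCaT cells, with no overlap. The empty vector libraries were at 2548 and 1094 CPM, and the siCTRL libraries at 2518 and 2448 CPM. Also below -0.9, among others, were RPL28 (-1.36), RPS19 (-1.23), RPL30 (-1.11) and RPLP0, the scaffold of the stalk (-0.91). In the empty vector libraries of A431 and HaCaT cells RPL28 was at 266 and 71.8 CPM and RPS19 at 830 and 238 CPM. RPL30 was at 1430 and 770 CPM there, and RPLP0 at 2502 and 1170 CPM. These genes were thus also lower in HaCaT cells in the vector arm without YAP5SA, in 1 library a line.

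RPS16 went the other way. It was at 133, 109 and 91.7 CPM in A431 cells with YAP5SA and at 199, 238 and 220 CPM in HaCaT cells, 0.98 higher on the log2 scale (SE 0.180, FDR 0.000434), while with siYAP the value was -0.15 (FDR 0.486). The empty vector libraries held 134 CPM of RPS16 in A431 and 232 CPM in HaCaT cells, and the siCTRL libraries 172 and 115 CPM. RPS16 was thus also higher in HaCaT cells in the vector arm without YAP5SA, in 1 library a line. RPS3 (0.50, FDR 0.00241) and RPLP1 (0.33, FDR 0.0298) were the others called higher. Its pseudogene RPS16P5 was called lower in HaCaT cells both with siYAP (-3.47) and with YAP5SA (-1.82). With YAP5SA the pseudogene was at 1.46, 1.35 and 1.75 CPM in A431 and at 0.538, 0.201 and 0.536 CPM in HaCaT cells, small beside the gap in RPS16. RPLP1 lost its call under some alternatives, with an FDR up to 0.174.

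**Figure D5:**
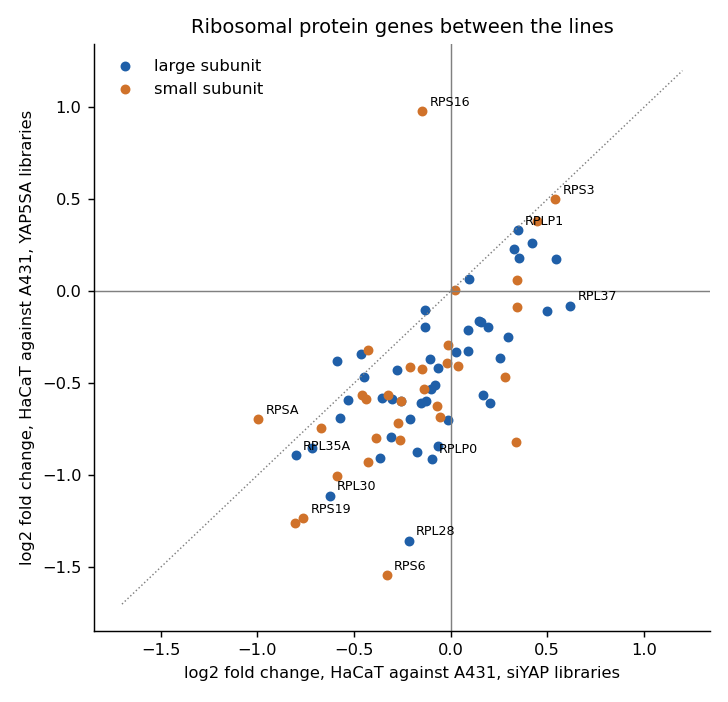
Log2 fold change of HaCaT against A431 cells for the 77 genes, in the siYAP libraries (x axis) and in the YAP5SA libraries (y axis), with a dotted line where both are equal. Most points lie below 0 on the y axis, RPS6 is the lowest at -1.54, and RPS16 stands alone at the top at 0.98.

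Across the lines, the log2 fold changes of the 77 members had Pearson's r = 0.57 and Spearman's rho = 0.60 with siYAP, with the same sign for 42, and -0.36 and -0.25 with YAP5SA, with the same sign for 49, as a description across genes. Members with a set role are given side by side. RPL11, which works with RPL5 in the 5S particle, had log2 fold changes of -0.07 and -0.23 with siYAP and of -0.13 and -0.38 with YAP5SA in A431 and HaCaT cells. RPL5 had -0.16, -0.39, 0.15 and -0.08 in the same order, and none of these 8 values was called. RPLP0 and RPL12, which anchor the stalk, had 0.11 and 0.18 in A431 and -0.44 and -0.36 in HaCaT cells with siYAP, and RPLP1, a stalk protein, had 0.14 and 0.10. RPS6 had 0.01 and -0.28 with siYAP, RPS19 had 0.29 and -0.16, RPSA had 0.12 and -0.38, and RPL41 had -0.07 and -0.28, all uncalled. Members with a pyrimidine run at the listed start and members without one there had medians of -0.33 and -0.34 in HaCaT cells with siYAP. With YAP5SA in HaCaT cells the medians were -0.24 and -0.18. This split rests on the base listed, and RPS15 and RPL9, counted as without, hold runs of C and T further into the printed bases.

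Of 8 paralogues, 6 passed the count filter. RPL22L1, the paralogue of RPL22, was the single one called in a treatment comparison. It was called higher in A431 cells with siYAP, where 1.81% of tested genes were. In A431 cells the siCTRL library held 79.2 CPM and the siYAP libraries 167, 152 and 147 CPM, 0.97 higher on the log2 scale (SE 0.159, FDR 0.00497), and RPL22L1 was at 64.0 CPM with the empty vector and 82.5, 72.5 and 72.7 CPM with YAP5SA. Every siYAP library was above every other A431 library. RPL22 itself had -0.19 (FDR 0.459) in the same comparison. The HaCaT siCTRL library held 29.8 CPM of RPL22L1 and the siYAP libraries 29.2, 27.3 and 24.2 CPM (log2 fold change -0.15, FDR 0.655), and the difference of the effects was -1.12 (FDR 0.0639), which was not called. RPL22L1 was called in all 11 alternatives, with log2 fold changes from 0.90 to 1.12.

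RPS27L, a paralogue of RPS27 known as a p53 target, read 14.4 CPM in the A431 siCTRL library and 25.9, 24.1 and 20.6 CPM after siYAP (log2 fold change 0.72, FDR 0.0634). It was not called. RPL7L1, RPL39L, RPL26L1 and RPL36AL had log2 fold changes between -0.33 and 0.25 in that comparison and were not called in any of the 4. Between the lines RPL39L (-2.60), RPL22L1 (-2.53) and RPL7L1 (-2.01) were called lower in HaCaT cells with siYAP, where 31.7% of tested genes were. RPL3L stayed under 0.4 CPM in every library and RPL10L was listed at 0 in all 16. FAU, whose product is a ribosomal protein fused to a ubiquitin-like protein, had log2 fold changes from -0.26 to 0.30 in the 4 treatment comparisons and was not called. RPL36AL, RPL39L, RPL26L1 and RPS27L are close in sequence to RPL36A, RPL39, RPL26 and RPS27, so reads may be split between them, and the 26 listed pseudogenes held 0.350% to 0.933% of the members' summed level in a library.

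Other genes of the pathway were read from lists set by function. With siYAP, 3.78% of tested genes were called lower and 1.81% higher in A431 cells, and 3.3% and 2.37% in HaCaT cells. Among 26 other TOP transcripts, some of them non-coding, 1 was called lower with siYAP in each line and 0 higher. It was HNRNPA1 in A431 cells (-0.90, FDR 0.0240) and, in HaCaT cells, GNB2L1, the gene of RACK1 on the small subunit (-0.54, FDR 0.0484), which read 1790 CPM in the siCTRL library and 1273, 1254 and 1165 CPM after siYAP. The median of the list was -0.03 in A431 and -0.32 in HaCaT cells with siYAP. With YAP5SA in HaCaT cells TPT1 (-0.95) and HNRNPA1 (-0.81) were called lower and EEF1D, an exchange factor of translation elongation (0.73), higher. Of tested genes, 6.64% were called lower there and 6.99% higher. TPT1 was at 2313 CPM with the empty vector and 1265, 1099 and 1233 CPM with YAP5SA.

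Of 13 chaperones and export factors of ribosomal proteins, HEATR3, which escorts RPL5 to the nucleus, was called lower with siYAP in A431 cells (-0.87), where 3.78% of tested genes were. In HaCaT cells 3 were called lower with siYAP, where 3.3% of tested genes were, PDCD2L (-0.88) and LTV1, a factor of small subunit export (-0.80), among them. PDCD2L was called higher with YAP5SA in HaCaT cells (0.91), where 6.99% of tested genes were. Of 10 regulators of TOP mRNAs and S6, EIF4EBP2 (-0.99) and RPS6KA3 (-0.69) were called lower with siYAP in A431 cells and none in HaCaT cells. With YAP5SA in HaCaT cells EIF4EBP1, a repressor of translation initiation under mTOR (0.94), was called higher. RPS6KB1, an S6 kinase (-0.54), and RPS6KA3 (-0.53) were called lower, where 6.64% of tested genes were.

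The proteins of the mitochondrial ribosome, which translates mitochondrial mRNAs, gave a comparison of the same size. Of 77 such genes, 2 were called lower with siYAP in A431 cells, MRPS16 (-0.56) and MRPL46 (-0.55), where 3.78% of tested genes were. In HaCaT cells 7 were called lower, led by MRPL46 (-0.72) and MRPL3 (-0.69), where 3.3% of tested genes were. The medians of the 77 were -0.11 and -0.21. None was called higher with siYAP, where 1.81% of tested genes in A431 and 2.37% in HaCaT cells were. With YAP5SA in HaCaT cells 4 were called higher, led by MRPL4 (1.62) and MRPS2 (1.003), where 6.99% of tested genes were. None was called lower, where 6.64% were, and the median was -0.06. With YAP5SA in A431 cells none was called and the median was 0.15, with 63 of 77 above 0, where 7761 of 14673 tested genes were. The mitochondrial ribosomal protein genes held 0.307% of the pairs of the HaCaT siCTRL library and 0.425% of the HaCaT empty vector library, the opposite order to the cytosolic ribosomal proteins.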

How the data were processed

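RNA-seq of 16 libraries of A431 and HaCaT cells was analysed. Paired reads of 100 bp were trimmed to 75 bp and assigned to RefSeq gene models by the authors with RSEM, version 1.2.21 in the study's methods and 1.2.11 in the submitters' processing notes, which also name hg19 and edgeR. The values deposited by the authors are RSEM estimated counts per gene, an estimated count being the reads a gene was assigned, with no scaling, and every column was used.

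Groups came from the sample labels. Counts were rounded and fitted in edgeR 4.0.16 (R 4.3.3, limma 3.58.1) in a single model of the 8 groups. Genes averaging more than 10 counts were kept (14673), TMM factors were applied, the prior count was 0.125, and 8 degrees of freedom remained. glmQLFTest was used with Benjamini-Hochberg adjustment over all tested genes, and the SE is the size of the log2 fold change over the square root of F. Calls follow the study's rule of FDR under 0.05 and logCPM above 1. The test was also run on simulated counts drawn without a GC trend and without a shift of a control library, so that run does not bear on either. Libraries held 18115624 to 46791673 pairs.

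Length and GC came from 1 protein-coding transcript a gene in GENCODE v29 (GC of the coding sequence), which gave a value for 93.0% of tested genes and all 77 members. DESeq2 1.42.0, RLE factors, scaling without the members, other filters, a length and GC trend, each line alone, both controls together, and leaving out each treated library were the alternatives. Calls by FDR alone, without the logCPM cut, were a further setting made from the same fit. Reported values come from the unpaired fit. For YAP5SA libraries, the deviations of same-numbered replicates of the lines had r = 0.323, 0.146 and 0.118, each above 0.1. By that cut the numbers were taken as pairing them, although A431 replicate 2 matched HaCaT replicate 3 best. The reported values between the lines leave this pairing out. Tables were made with Python 3.11.15, pandas 2.3.3, numpy 2.4.6, scipy 1.17.1 and matplotlib 3.10.9.

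The members and lists were chosen with earlier results of these data known, so no list was tested as a set and no p was adjusted over a list. Named are YAP1, all called members of a treatment comparison with the 2 highest and 2 lowest of each subunit, the 3 largest calls in each direction between the lines, the 3 highest and lowest by level per length, members with a fixed role, all paralogues and ubiquitin fusions, and the 2 largest calls of each other list. Some genes that the rule names are not reported here. Members named beyond this rule (RPS10, RPL3, RPL4, RPL13 and RPS16P5) were chosen after their values were seen.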

Additional observations from a re-analysis of the deposited data

Results flagged for a closer look

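RPS15 stood out because its change with YAP5SA against the empty vector differed between the lines in a test of the difference itself. The log2 fold change against the empty vector was 1.23 in HaCaT and -0.16 in A431 cells, a difference of 1.394 (SE 0.228, FDR 0.0425, edgeR quasi-likelihood test). All 3 HaCaT YAP5SA libraries were above their control, and all 3 A431 YAP5SA libraries were below theirs. Each control is 1 library, and the HaCaT empty vector library held the lowest RPS15 level of the 16, at 66.9 CPM. The HaCaT YAP5SA libraries were below every HaCaT siRNA library, which were at 178 to 210 CPM. RPS15 has the highest coding GC content of the members, at 63.0%, and the difference was 0.684 (FDR 0.167) with a length and GC trend taken out. The part of GC content in the result was otherwise not tested. The FDR lay between 1.52e-05 and 0.167 over 12 alternatives.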

How the results depend on the processing

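No member fell under 1381 estimated counts in a library, and each control is a single library. In HaCaT cells with siYAP the 1 call became 2 with scaling factors made without the members or with the length and GC trend taken out, 0 with the line fitted alone, 5 with DESeq2, and 0 to 2 when each siYAP library was left out. Of all tested genes 5.67% were called in the reported fit, and 5.7%, 6.58%, 2.43% and 9.16% in that order. With a library left out it was 3.56% to 4.82%. With siCTRL and empty vector as 2 controls the medians moved from -0.33 and -0.32 to -0.035 and -0.085. In HaCaT cells with YAP5SA the 7 calls became 2 with the trend taken out, 1 with the line alone, 30 with 2 controls, 12 with DESeq2 and 2 to 14 when a library was left out (2 without replicate 3). Of all tested genes 13.6% were called in the reported fit, and 7.48%, 4.51%, 13.0% and 18.6% in that order. With a library left out it was 7.77% to 19.8%. With 2 controls the medians of the members with YAP5SA in HaCaT cells moved to -0.586 and -0.502, and RPLP2 reversed, to -0.116.

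For the difference of the YAP5SA effect, the 1 call became 2 with more than 10 counts in every library, 0 with the trend taken out, 8 with DESeq2, and 0 to 6 when a library was left out (0 without A431 replicate 2 or 3 or HaCaT replicate 3). Of all tested genes 0.0886% were called in the reported fit, and 1.86%, 0.204% and 6.32% in that order. With a library left out it was 0.00682% to 5.97%. Between the lines, taking the trend out moved the large subunit median from -0.10 to 0.05 with siYAP and from -0.45 to -0.341 with YAP5SA. Leaving out a library gave -0.161 to 0.001 with siYAP, so the direction of that median was not kept, and -0.536 to -0.337 with YAP5SA. The trend also changed the split between the lines with siYAP from 12 higher and 25 lower to 18 and 24. Without the count filter it was 6 and 28, without HaCaT replicate 2 it was 6 and 26, without A431 replicate 3 or HaCaT replicate 1 it was 7 and 21, and without HaCaT replicate 3 it was 13 and 14. Of all tested genes 26.9% were called higher and 31.7% lower in the reported fit. The shares were 27.4% and 31.5% with the trend taken out, and 16.9% and 22.6% without the count filter. Without those libraries 24.7% to 25.5% were higher and 28.5% to 30.6% lower. Beyond the design of these alternatives, the causes were not tested.

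With the replicate block, 38 members were called between the lines with siYAP and 59 with YAP5SA, against 37 and 58 without it, and it changed no call of a gene named in these comparisons. Of all tested genes 59.4% and 51.3% were called with the block, against 58.6% and 50.2% without it. The block was a single term for replicate number, shared by all treated libraries of both treatments. It was therefore not a paired test of the YAP5SA libraries alone, which was not run. For siYAP the same-numbered deviations had r = 0.0182, 0.116 and 0.176, and since 1 of these is under 0.1 those libraries were taken to share only a number. In each treatment 2 of 3 libraries matched their own number best. No paired analysis was possible because each control is 1 library for the comparisons within a line. Of the single genes named, 202 values kept their direction and their side of the threshold under the other alternatives, 20 lost the call and 1 reversed. The 202 include calls by FDR alone in the reported fit, a setting that could change none of these values. When a library was left out, 122 kept both and 16 lost the call.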
